A study of Mus musculus with 3 samples.

Results

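The genes described here are 10 markers of the exocrine acinar cell, 6 that encode digestive enzymes (Cpa1, Cela1, Ctrb1, Prss2, Pnlip and Cel) and 4 that encode transcription factors (Ptf1a, Rbpjl, Bhlha15 and Nr5a2), out of 22359 protein-coding genes in the annotation. They were chosen by name, and every peak of open chromatin that overlapped a gene body or the 20 kb on either side of it was counted in the peak list of each library. This span is called the window of the gene. All 10 genes were found in the annotation, and their windows covered 0.582 Mb in total. They held 23 peaks in the wild type (WT) list, 31 in the Taf4 KO list at 1 week and 54 in the Taf4 KO list at 5 weeks. The 6 enzyme genes had no peak at their promoters in any list, whereas the promoters of Rbpjl, Bhlha15 and Ptf1a were called in at least 1 list.

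ATAC-seq, in which a transposase inserts adapters where chromatin is open, was performed by the study on cells dissociated with Accutase from purified mouse islets of Langerhans. In the Taf4 KO mice the gene for Taf4, a part of the TFIID complex of general transcription, had been inactivated for 1 or 5 weeks. The 3 libraries were 1 WT, 1 Taf4 KO at 1 week and 1 Taf4 KO at 5 weeks, all with the strain label C5LBl6 and with no age in the labels. The study describes floxed Taf4 alleles deleted by Ins1::Cre-ERT2, a Cre recombinase driven by the insulin 1 promoter and switched on by tamoxifen, and controls with intact Taf4 that also received tamoxifen. The deletion was therefore aimed at beta cells, and whether acinar or ductal cells kept Taf4 was not tested here. How many animals gave each library is not given in the sources used here. With 1 library per group the spread between animals is unknown, no p-value was computed, and each difference below is one between 3 libraries.

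Acinar cells make up most of the pancreas around the islets and secrete digestive enzymes, the proteases largely as inactive zymogens. Their enzyme genes are switched on by the PTF1 complex, in which Ptf1a, a basic helix-loop-helix protein, pairs with an E-protein on an E-box and joins Rbpjl, which reads a nearby TC-box. Bhlha15, also named Mist1, organises the secretory machinery in acinar cells and is used by other secretory cells as well, and Nr5a2 is a nuclear receptor that acts with PTF1 on enzyme genes. Islets are dissected out of this tissue, so peaks at these genes were counted as a sign of exocrine chromatin in the preparations. In a bulk library, fewer cells with an open site and a less open site in each cell cannot be told apart.

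The peak lists held 60898, 150354 and 151725 peaks in the WT, 1 week and 5 week lists. The background read count recovered from the authors' fold and p of each peak, a measure of depth, was 3.66 reads in WT, 6.45 reads after 1 week and 9.38 reads after 5 weeks, or 1.76 and 2.56 times the WT value. By this measure the longer lists came from the deeper libraries. The fold and p are averages over a peak, and the effect of this on the measure was not tested. Over all peaks of a list the median -log10 q was 3.71 in WT, 2.08 after 1 week and 2.38 after 5 weeks. In every list 10 of 10 beta cell genes (among them Ins1, Ins2, Pdx1 and Mafa) had a promoter peak. The share over all protein-coding genes was 59.0% in WT, 55.9% after 1 week and 65.6% after 5 weeks. The gene lists were chosen with earlier results of these data known, so this is not an independent check of the labelled tissue. The titles of the samples name pancreas and the tissue label names cells from islets. The promoter of Taf4a, the symbol of Taf4 in the annotation, was called in all 3 lists, which does not test the deletion.

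The sequences that the results turn on are printed here from the mm9 assembly, 5′ to 3′ on the strand named, in lower case with motif matches in capitals. CACCTG and CAGCTG are E-boxes, the first of the kind bound by PTF1 and the second of the kind bound by Bhlha15, TTTCCCA is the TC-box of PTF1, and CAAGGTCA is the site of Nr5a2. Each was searched on both strands, so a match to the minus strand appears as its reverse complement, CAGGTG for CACCTG and TGGGAAA for TTTCCCA. The 2 shared regions, called in all 3 lists, are shown because they held the strongest peak around an enzyme gene in every list and the strongest around a factor gene by -log10 q in WT and at 1 week. The Rbpjl, Ptf1a and Bhlha15 promoters are shown because they were called, and those of Cpa1 and Ctrb1 because they hold motifs of acinar factors without a peak. Promoters are the 250 bases before the start.
Region upstream of Cpa1, chr6:30578106-30578405, plus strand: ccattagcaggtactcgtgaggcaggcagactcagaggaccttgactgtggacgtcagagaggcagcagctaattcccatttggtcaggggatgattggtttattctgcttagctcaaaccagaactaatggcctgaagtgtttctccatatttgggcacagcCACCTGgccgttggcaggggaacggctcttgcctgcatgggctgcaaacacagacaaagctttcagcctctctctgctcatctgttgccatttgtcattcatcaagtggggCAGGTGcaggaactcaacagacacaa
Region in an intron of Nr5a2, chr1:138806818-138807117, plus strand: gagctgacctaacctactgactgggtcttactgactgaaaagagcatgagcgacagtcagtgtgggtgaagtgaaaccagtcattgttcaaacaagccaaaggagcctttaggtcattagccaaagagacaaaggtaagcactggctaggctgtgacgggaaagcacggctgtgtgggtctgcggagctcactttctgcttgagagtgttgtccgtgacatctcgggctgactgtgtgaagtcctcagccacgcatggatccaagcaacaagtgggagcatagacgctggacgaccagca
Cpa1 promoter, chr6:30588968-30589217, plus strand: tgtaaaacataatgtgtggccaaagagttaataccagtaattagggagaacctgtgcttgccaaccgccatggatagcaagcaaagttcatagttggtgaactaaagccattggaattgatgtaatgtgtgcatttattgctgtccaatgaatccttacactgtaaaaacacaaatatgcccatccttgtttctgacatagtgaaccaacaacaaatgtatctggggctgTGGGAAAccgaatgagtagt
Ctrb1 promoter, chr8:114214911-114215160, minus strand: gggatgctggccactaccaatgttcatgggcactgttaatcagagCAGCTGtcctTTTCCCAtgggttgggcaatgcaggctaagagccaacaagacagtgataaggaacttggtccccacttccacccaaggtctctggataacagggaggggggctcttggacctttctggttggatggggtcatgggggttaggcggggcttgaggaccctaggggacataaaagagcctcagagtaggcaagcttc
Rbpjl promoter, chr2:164228444-164228693, plus strand: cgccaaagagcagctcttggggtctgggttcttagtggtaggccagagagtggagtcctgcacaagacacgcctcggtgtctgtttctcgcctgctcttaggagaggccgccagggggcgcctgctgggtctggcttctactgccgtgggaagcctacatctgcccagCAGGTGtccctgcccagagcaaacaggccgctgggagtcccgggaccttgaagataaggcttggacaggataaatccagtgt
Ptf1a promoter, chr2:19367040-19367289, plus strand: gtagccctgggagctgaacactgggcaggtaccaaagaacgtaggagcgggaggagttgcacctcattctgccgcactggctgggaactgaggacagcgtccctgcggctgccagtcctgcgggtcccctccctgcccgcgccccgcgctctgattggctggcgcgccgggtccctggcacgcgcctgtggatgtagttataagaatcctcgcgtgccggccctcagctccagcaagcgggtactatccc
Bhlha15 promoter, chr5:144950905-144951154, plus strand: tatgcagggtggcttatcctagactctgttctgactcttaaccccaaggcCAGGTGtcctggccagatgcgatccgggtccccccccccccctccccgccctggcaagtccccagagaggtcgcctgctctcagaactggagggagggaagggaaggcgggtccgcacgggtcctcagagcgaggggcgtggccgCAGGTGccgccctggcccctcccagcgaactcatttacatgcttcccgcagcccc

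A promoter was called where a peak overlapped the span from 1000 bp before to 100 bp after an annotated start of a protein-coding transcript. Of the 10 acinar genes, 2 were called in WT (20%, Wilson 95% interval 5.67 to 51.0%), where 59.0% of all protein-coding genes were. At 1 week 1 of 10 was called (10%, interval 1.79 to 40.4%), against 55.9% of all genes, and at 5 weeks 3 of 10 (30%, interval 10.8 to 60.3%), against 65.6%. The intervals cover the counting of genes only. All calls belonged to the factors, of which 2, 1 and 3 of 4 were called in the WT, 1 week and 5 week lists, while 0 of 6 enzyme genes were called in each list, with an upper Wilson bound of 39.0%. With a promoter span of 2500 bp on each side, Nr5a2 was called in all 3 lists and Prss2 at 1 week, the one enzyme gene to be called.

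Set beside other gene lists, the acinar genes lay far below the beta cell genes and near genes of tissues other than islets (Cdx2, Krt14, Myod1 and others), of which 2, 1 and 2 of 10 were called in the WT, 1 week and 5 week lists. Of 10 ductal genes (such as Krt19, Sox9 and Cftr), which mark the other exocrine cell type, 6 were called in WT and 8 in each Taf4 KO list. Krt8, Car2 and other members of that list are used in further cell types too. Of 31 other acinar genes found in the annotation, 2 were called in WT, 3 after 1 week and 5 after 5 weeks. With 10 genes or fewer in most lists, the intervals were wide.

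**Figure D1:**
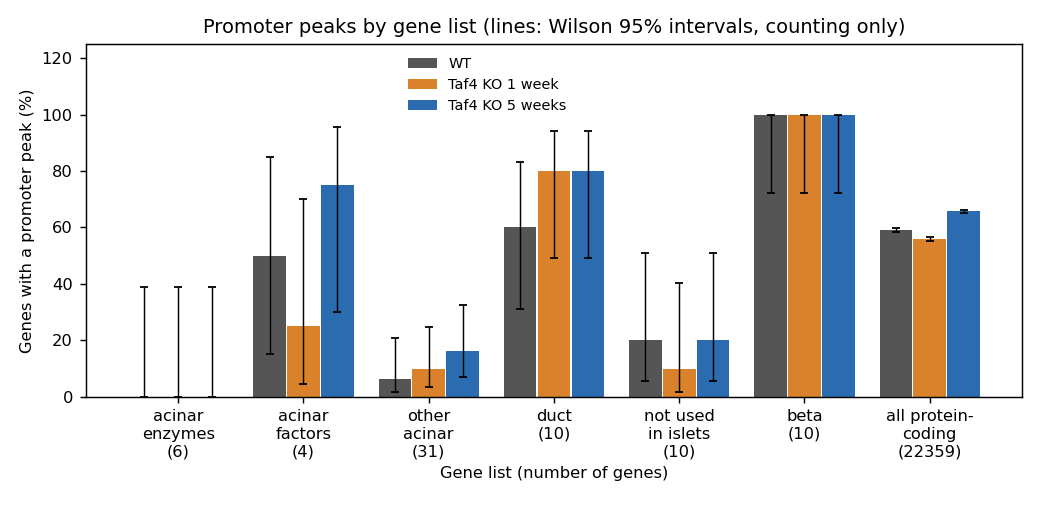
Percent of genes with a promoter peak in each of 7 gene sets, with 1 bar per library and lines for Wilson 95% intervals that cover counting only. The 6 acinar enzyme genes stand at 0% in all 3 libraries, with an upper bound of 39.0%, while the 10 beta cell genes stand at 100%.

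Against WT, 0 of the 10 acinar genes gained a promoter peak at 1 week (5.46% of all genes did) and 1, Rbpjl, lost it (8.54% of all genes did). At 5 weeks 1 gene, Ptf1a, gained a promoter peak (7.74% of all genes) and 0 lost one (1.11%). Bhlha15 was called in all 3 lists, a pattern shared with 50.4% of all genes. The pattern of Rbpjl, called in the WT and 5 week lists alone, was shared with 7.55% of genes, and that of Ptf1a, called at 5 weeks alone, with 4.34%. The 7 other genes, Nr5a2 among them, were called in no list, as were 31.2% of all genes.

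The windows of the 10 genes held 3.96 peaks per 100 kb in WT, 5.33 after 1 week and 9.29 after 5 weeks, beside 3.997, 5.07 and 6.44 over the windows of all protein-coding genes. The summed counts of the acinar windows stood at 1.35 times WT at 1 week and 2.35 times at 5 weeks, and those of all gene windows at 1.27 and 1.61 times. Nr5a2 and Prss2 held the largest gains at both times. Nr5a2 is by far the longest of the genes, with a window of 156.8 kb. Without both genes, a choice made after their values were seen, the other 8 windows held 19, 10 and 24 peaks in the WT, 1 week and 5 week lists, or 0.526 and 1.26 times WT. The direction of the summed counts also depended on the length of the lists: with the same number of strongest peaks taken from each list, the 10 windows held 23, 9 and 15 peaks.

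At least 1 peak lay in the windows of 9 genes in WT (81.6% of all genes had one), 7 at 1 week (89.2%) and 10 at 5 weeks (93.5%). More peaks than in WT were found around 3 acinar genes at 1 week (33.5% of all genes) and fewer around 6 (43.0%), with Cpa1 equal. The 3 with more were Prss2, Ptf1a and Nr5a2. At 5 weeks 6 genes had more peaks than in WT (54.0% of all genes), 1, Ctrb1, had fewer (15.1%), and Cela1, Rbpjl and Bhlha15 were equal.

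**Figure D2:**
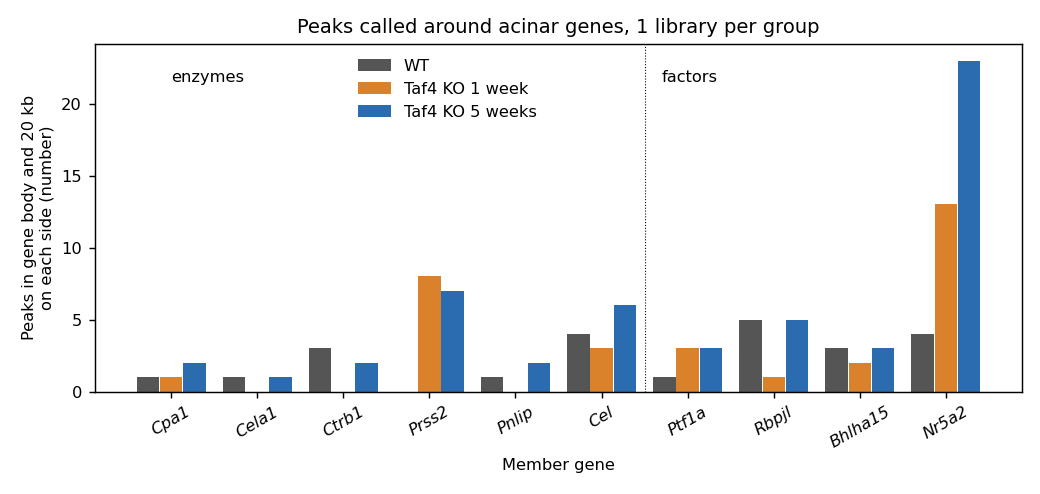
Number of peaks in the window of each acinar gene (gene body and 20 kb on each side), with 1 bar per library, enzymes on the left of the dotted line and factors on the right. Nr5a2 rises from 4 to 13 and 23 peaks and Prss2 from 0 to 8 and 7, while the other 8 genes hold 6 peaks or fewer in every library.

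The genes with more peaks at 1 week were those in GC-poor surroundings. Autosomal genes were placed in 5 equal groups by percent GC over the 1 Mb centred on their start, and Prss2 (39.9% GC) was in group 1, the poorest, and Ptf1a (41.7%) and Nr5a2 (43.1%) were in group 2. Cpa1 (44.3%) and Pnlip (44.9%) were in group 3, Ctrb1 (45.4%), Rbpjl (46.6%) and Bhlha15 (47.1%) in group 4, and Cela1 (48.0%) and Cel (49.1%) in group 5. The same gradient ran through all genes: their summed window counts at 1 week were 4.96, 1.61, 0.948, 0.697 and 0.529 times WT from group 1 to group 5, and 4.04, 1.98, 1.46, 1.25 and 1.14 times at 5 weeks. The acinar windows of groups 1 and 2 held 0 and 5 peaks in WT, 8 and 16 at 1 week, and 7 and 26 at 5 weeks. Those of groups 3, 4 and 5 together fell short of WT at 1 week, with 2, 11 and 5 peaks in WT against 1, 3 and 3, and held 4, 10 and 7 at 5 weeks. Library and GC content moved together here, and their part in the counts was not tested.

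**Figure D3:**
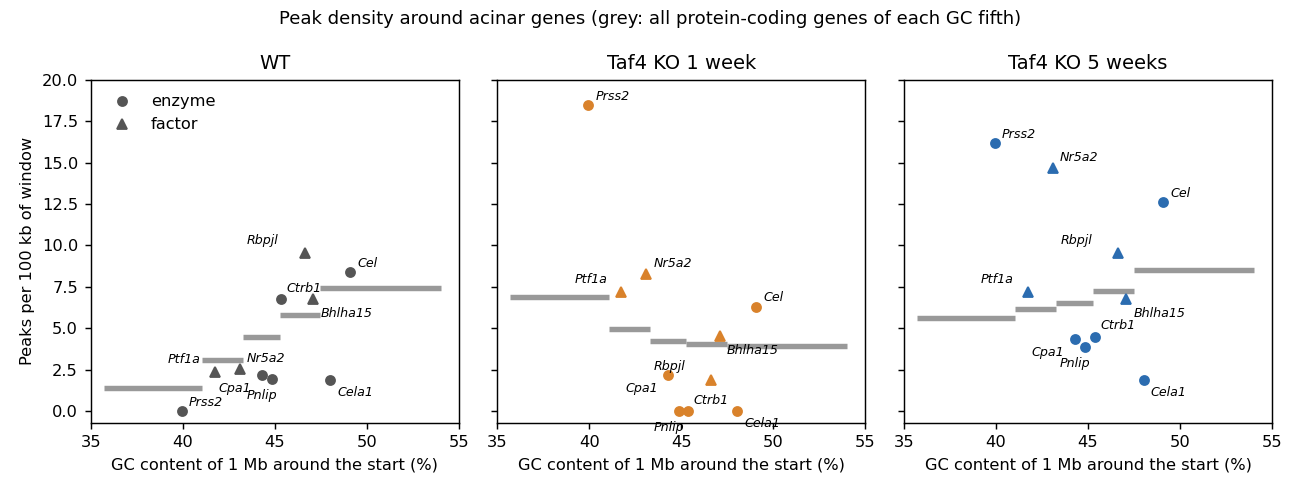
Peaks per 100 kb of window (vertical axis) against percent GC over the 1 Mb centred on the gene start (horizontal axis), 1 panel per library, with circles for enzymes, triangles for factors and grey lines for all autosomal protein-coding genes of each GC group. The grey lines climb with GC content in WT, from 1.40 to 7.46 peaks per 100 kb, and fall with it at 1 week, from 6.92 to 3.95. Prss2, Ptf1a, Nr5a2 and Cel stand above the lines of their groups in both Taf4 KO libraries.

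Cpa1, carboxypeptidase A1, which trims amino acids from the carboxyl end of peptides, lies on the plus strand of chromosome 6 (30589218 to 30595363, ENSMUSG00000054446). Its window held 1, 1 and 2 peaks in the WT, 1 week and 5 week lists. The peak found in all lists was centred at -10963 bp from the start in WT, in an intron of Cpa5, a carboxypeptidase gene of the same cluster. It spanned 30577996 to 30578515 in WT, 30577765 to 30578575 after 1 week and 30577751 to 30578702 after 5 weeks. It was the strongest peak around any acinar gene in every list, with a fold over local background of 6.11, 6.08 and 5.25 and a -log10 q of 29.2, 26.5 and 33.8 in that order. By -log10 q it ranked 612 of 60898 in WT, 253 of 150354 after 1 week and 670 of 151725 after 5 weeks, the 99.0, 99.8 and 99.6 percentile of each list. The place of this region near the top was thus common to WT and both Taf4 KO libraries.

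The printed bases of this region hold CACCTG at 30578269 on the plus strand and at 30578380 on the minus strand. The same motif was found in a span of the same length at the centre of 27.5% of WT peaks, 22.1% of 1 week peaks and 24.5% of 5 week peaks, so a match there is common. The Cpa1 promoter itself, which was called in no list, holds TTTCCCA on the minus strand with its first base at -20 from the start and CAGCTG at 3 and 23 after it. The nearest peak to the Cpa1 start lay 10703 bp away in WT, 10643 bp after 1 week and 10516 bp after 5 weeks, which is the same upstream region in each list. The second peak at 5 weeks (30604306 to 30604553) lay in an exon of Tsga14 with a -log10 q of 1.77, the 32.1 percentile.

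Cela1, an elastase, lies on the minus strand of chromosome 15 (100504856 to 100518351, ENSMUSG00000023031) and had 1, 0 and 1 peaks in the WT, 1 week and 5 week lists. The WT peak (100499817 to 100500016) was at the promoter of the neighbouring gene Bin2, with fold 2.62 and -log10 q 1.501. The 5 week peak (100530881 to 100531621) was in an intron of Galnt6, with fold 2.11 and -log10 q 1.73. They stood at the 7.57 and 30.6 percentile of their lists. No peak touched the Cela1 gene itself, and with 1.87 peaks per 100 kb its window was poorer at 5 weeks than those of most genes, at the 10.8 percentile of all protein-coding genes.

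Ctrb1, chymotrypsinogen B, a zymogen that yields a chymotrypsin, lies on the minus strand of chromosome 8 (114210410 to 114214910, ENSMUSG00000031957) and had 3, 0 and 2 peaks in the WT, 1 week and 5 week lists. In WT the strongest (114202135 to 114202334) lay between genes with fold 2.95 and -log10 q 2.44, the 32.6 percentile. Another (114210068 to 114210798) covered the exon at the far end of the gene with a -log10 q of 1.40, and the third (114229225 to 114229455), with 1.32, was centred at -14430 bp from the start. Both stood near the foot of the WT list, at the 3.75 and 2.34 percentile. The third overlapped a 5 week peak (114229138 to 114229347) with a -log10 q of 2.69, the 55.4 percentile. Its promoter holds CAGCTG at -205 and TTTCCCA at -195, close together in the printed sequence, and was called in no list.

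Prss2, a trypsinogen, lies on the plus strand of chromosome 6 (41471786 to 41475078, ENSMUSG00000057163), within the T cell receptor beta locus. Its window held 0, 8 and 7 peaks in the WT, 1 week and 5 week lists, and the nearest peak to its start lay 82652 bp away in WT, 1646 bp after 1 week and 3370 bp after 5 weeks. In peaks per 100 kb the window went from 0 to 18.5 and 16.2, the 99.4 percentile of all protein-coding genes at 1 week and the 97.2 percentile at 5 weeks. Over all genes of the same GC group the density was 1.40 in WT, 6.92 after 1 week and 5.63 after 5 weeks. The median percentile of these peaks was 34.1 at 1 week and 45.7 at 5 weeks. The fold lay between 1.84 and 2.73 at 1 week and between 1.86 and 2.40 at 5 weeks. A -log10 q of 5 was reached by 0 of 8 and 0 of 7, beside 15.9% of all 1 week peaks and 28.0% of all 5 week peaks.

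The strongest Prss2 peak at 1 week (41463388 to 41463879) was centred at -8153 bp with a -log10 q of 3.66, the 77.2 percentile, and that at 5 weeks (41455295 to 41455740) at -16269 bp with 2.98, the 59.1 percentile. A peak at 1 week (41473432 to 41474131, -log10 q 1.99) covered an exon of Prss2, and it had no counterpart at 5 weeks. On the far side of the gene, peaks of both lists lay over joining segments of the T cell receptor beta locus. Merged across lists, the window held 11 regions, of which 4 were in both Taf4 KO lists, 4 at 1 week alone and 3 at 5 weeks alone. None of them was at the Prss2 promoter, which holds CACCTG at -180 and TTTCCCA on the minus strand at -122. Of the 31-base words in the window, 90.6% occurred once in the genome, and 99.6% in the promoter, so most words of this copy of the trypsinogen family were unique.

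Pnlip, pancreatic lipase, which splits dietary fat, lies on the plus strand of chromosome 19 (58744855 to 58756276, ENSMUSG00000046008) and had 1, 0 and 2 peaks in the WT, 1 week and 5 week lists. A region at the upstream edge of the window was shared by WT (58724583 to 58724883, fold 3.54, -log10 q 4.002) and 5 weeks (58724574 to 58724881, fold 2.52, -log10 q 3.52), at the 52.8 and 64.1 percentile. The second 5 week peak (58749214 to 58750168) covered an exon of Pnlip with fold 2.30 and -log10 q 2.53. At 1 week the nearest peak to the start was 161014 bp away, the farthest for any of the 10 genes in any list.

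Cel, carboxyl ester lipase, which splits cholesterol esters and other lipids, lies on the minus strand of chromosome 2 (28411315 to 28418923, ENSMUSG00000026818) and had the most peaks of the enzymes in WT, with 4, beside 3 and 6 in the 1 week and 5 week lists. The strongest in each list was at the promoter of the neighbouring gene Gtf3c5. It had fold 4.41 and -log10 q 10.5 in WT (28438205 to 28438938, the 81.7 percentile), 2.35 and 1.77 at 1 week (28438501 to 28438857, the 36.8 percentile), and 3.88 and 11.5 at 5 weeks (28438363 to 28438993, the 87.8 percentile). That peak was thus weak within its list at 1 week alone. A peak at the Ralgds promoter was called in WT (28403225 to 28403621, -log10 q 5.36) and at 5 weeks (28403278 to 28403621, 10.1). The 2 other regions called in all 3 lists were in introns of Ralgds, with a -log10 q of 3.03 or less in every list.

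No peak in any list lay in the Cel gene, and the nearest to its start was 15261 bp away in WT, 19619 bp after 1 week and 3190 bp after 5 weeks. Its promoter was the richest in motifs among the 10, with CACCTG at 5 positions, TTTCCCA on the minus strand at -128 and CAAGGTCA on the minus strand at -69. The high peak count of this window therefore came from within its neighbours Ralgds and Gtf3c5.

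Among the factors, Ptf1a, the defining subunit of PTF1, lies on the plus strand of chromosome 2 (19367290 to 19369128, ENSMUSG00000026735) and had 1, 3 and 3 peaks in the WT, 1 week and 5 week lists. The WT peak (19374123 to 19374340) was in an exon of 1810010K12Rik, with fold 2.79 and -log10 q 1.91, the 20.8 percentile. The strongest at 1 week (19352879 to 19354232, -log10 q 1.83) overlapped a 5 week peak (19352538 to 19355355, -log10 q 2.099). The promoter peak at 5 weeks (19366551 to 19367603) had fold 2.02 and -log10 q 2.20, the 45.9 percentile, and also covered an exon of the gene model Gm13336. The strongest 5 week peak (19373723 to 19373950) had fold 2.16 and -log10 q 2.51.

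In the Ptf1a window, which held few peaks, 0 reached a -log10 q of 3 in any list. Over the whole lists 58.4% of peaks did in WT, 29.2% at 1 week and 40.6% at 5 weeks. The Ptf1a promoter call was lost when peaks under a -log10 q of 3 were dropped. Of autosomal genes in the same GC group with no promoter peak in WT, 20.3% gained one at 5 weeks. The printed promoter, rich in C and G, holds none of the 4 motifs searched.

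Rbpjl, the acinar partner of Ptf1a in PTF1, lies on the plus strand of chromosome 2 (164228641 to 164240948, ENSMUSG00000017007) and had 5, 1 and 5 peaks in the WT, 1 week and 5 week lists. Its promoter peak was present in WT (164228391 to 164228736) with fold 3.20 and -log10 q 3.88, the 51.7 percentile, and at 5 weeks (164228393 to 164228806) with fold 3.32 and -log10 q 7.97, the 81.0 percentile. At 1 week no peak lay within 13004 bp of the start. The promoter sits in an intron of Matn4, the gene that overlaps it. Its printed sequence holds CACCTG on the minus strand at -82, inside the called peak of both lists.

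The 1 week peak that remained in the Rbpjl window was at the promoter of the neighbouring gene Slpi, and it was called in all 3 lists. It had fold 3.97 and -log10 q 7.86 in WT (164215256 to 164215731, the 74.0 percentile), 2.64 and 2.76 at 1 week (164215423 to 164215690, the 67.1 percentile), and 4.11 and 13.1 at 5 weeks (164215252 to 164215737, the 90.0 percentile). At 5 weeks a peak (164233254 to 164233545) covered an exon of Rbpjl with a -log10 q of 5.81. Another (164260944 to 164263280), which only reached the edge of the window, lay in Sdc4 and was called in all lists, but its WT and 1 week counterparts ended outside the window. Of autosomal genes in the GC group of Rbpjl with a promoter peak in WT, 18.05% had none at 1 week, and 2.54% had none at 5 weeks.

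Bhlha15 lies on the plus strand of chromosome 5 (144951155 to 144955310, ENSMUSG00000052271) and had 3, 2 and 3 peaks in the WT, 1 week and 5 week lists. It was the one acinar gene with a promoter peak in every list. In WT (144951017 to 144952713) the fold was 3.07 and the -log10 q 6.15, at the 67.0 percentile. At 1 week (144950824 to 144951831) they were 2.19 and 1.35, at the 11.2 percentile, and at 5 weeks (144950801 to 144952713) 2.84 and 7.14, at the 78.9 percentile. The promoter peak was thus weak within its list at 1 week, and it was lost there in each of 4 stricter lists that kept it in WT and at 5 weeks. Over all genes the share with a promoter peak at 1 week also fell, from 55.9% to between 33.5 and 49.1% in those lists. It stood between 48.6 and 59.0% in WT and between 54.4 and 59.0% at 5 weeks.

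A region centred at -5893 bp from the Bhlha15 start in WT, in an exon of Lmtk2, was called in all 3 lists and did not share this dip. Its fold was 3.35 in WT (144944698 to 144945827), 3.57 in the 1 week list (144944796 to 144945905) and 3.93 in the 5 week list (144944707 to 144945974), with a -log10 q of 5.48, 6.99 and 13.8 and a percentile of 63.4, 89.8 and 90.8. The printed Bhlha15 promoter holds CACCTG on the minus strand at -200 and at -55. The promoter and this upstream region therefore took different places within the 1 week list.

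Nr5a2 lies on the minus strand of chromosome 1 (138740161 to 138857004, ENSMUSG00000026398) and had 4, 13 and 23 peaks in the WT, 1 week and 5 week lists. In peaks per 100 kb this was 2.55, 8.29 and 14.7, the 38.3, 81.4 and 95.4 percentile of all protein-coding genes. The density over all genes of its GC group was 3.10 in WT, 4.99 after 1 week and 6.14 after 5 weeks. Over all peaks of the window the median -log10 q was 4.82 in WT, 2.14 after 1 week and 1.63 after 5 weeks. The medians of the whole lists were 3.71, 2.08 and 2.38. In each list 2 peaks of the window reached 5. They were 50% of its peaks in WT (beside 39.6% of the whole list), 15.4% at 1 week (beside 15.9%) and 8.70% at 5 weeks (beside 28.0%). Merged across lists, the window held 28 regions, of which 3 were in all lists, 6 in both Taf4 KO lists, 14 at 5 weeks alone, 4 at 1 week alone and 1 in WT alone.

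The 3 regions found in all lists lay inside the gene. The strongest was in an intron, 50025 bp after the start in WT (138806736 to 138807222), with fold 5.09 and -log10 q 9.51 there, fold 4.09 and -log10 q 12.1 at 1 week (138806751 to 138807231), and fold 3.73 and -log10 q 13.7 at 5 weeks (138806736 to 138807183). It stood at the 79.1, 96.5 and 90.6 percentile. The second, 11519 bp after the start over an exon (138845105 to 138845866 in WT), had a -log10 q of 5.42, 5.44 and 9.66 and stood at the 63.1, 85.6 and 84.6 percentile. The third, 69362 bp after the start over an exon (138787026 to 138788259 in WT), had 4.22, 2.67 and 2.63 and stood at the 54.6, 65.7 and 54.5 percentile. None of the motifs searched was found in the bases printed for the strongest region. The nearest peak to the start was 4770 bp away in WT, 2071 bp after 1 week and 2056 bp after 5 weeks, outside the promoter span. Distances are from the most upstream annotated start, while promoter calls used every annotated start of a protein-coding transcript. The WT call of Nr5a2 with 2500 bp on each side therefore came from another start of the gene.

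**Figure D4:**
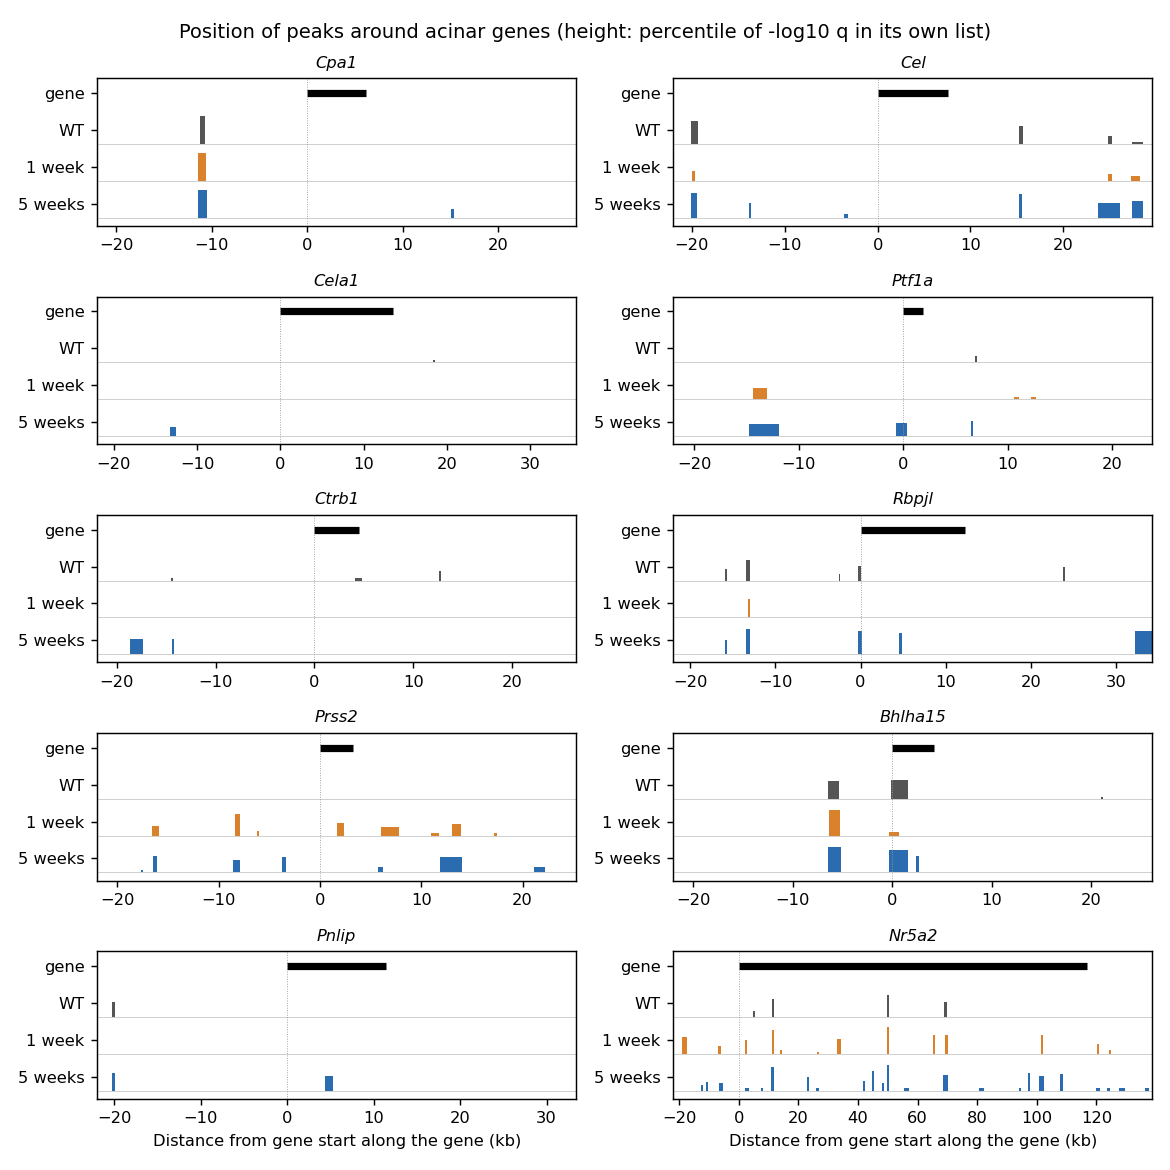
Position of every peak in the window of each acinar gene, as distance from the gene start along the gene in kb (horizontal axis), with 1 track per library. Black bars are the genes, the height of a peak is its percentile by -log10 q within its own list with a small minimum so that the weakest can be seen, and narrow peaks are widened to be visible, so the tall peaks upstream of Cpa1 in all 3 libraries and the many low ones across Nr5a2 stand out.

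Over all acinar windows, the share of strong peaks was a little below that of the whole list in each library. A -log10 q of 5 was reached by 8 of 23 peaks in WT (34.8%, beside 39.6% of all WT peaks), by 4 of 31 at 1 week (12.9%, beside 15.9%) and by 11 of 54 at 5 weeks (20.4%, beside 28.0%). The median fold was 3.07 in WT, 2.23 after 1 week and 2.11 after 5 weeks, and 3.19, 2.40 and 2.24 over all peaks. The median percentile within the list was 49.7, 36.8 and 52.3. At the promoters of other genes stood 4, 2 and 3 of the peaks, and 7, 11 and 22 lay inside the acinar genes themselves, in every list mostly in Nr5a2.

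**Figure D5:**
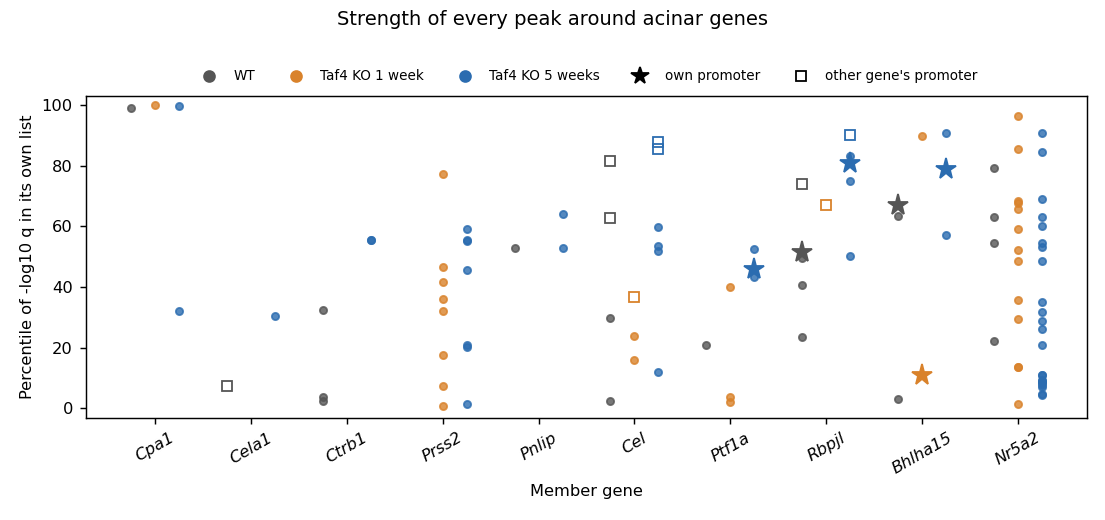
Percentile of each peak by -log10 q within its own list (vertical axis), with 1 point per peak for each acinar gene and library, stars for peaks at the gene's own promoter and open squares for those at another gene's promoter. The Cpa1 region lies at 99.0 or above in all 3 libraries, while the Prss2 peaks lie at 77.2 or below.

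Merged across lists, the 10 windows held 72 regions. Of these, 11 were called in all 3 lists (15.3%, beside 15.7% of 233507 regions over the genome), and they belonged to Cpa1 (1), Cel (3), Rbpjl (2), Bhlha15 (2) and Nr5a2 (3). A further 5 were in the WT and 5 week lists (6.94%, beside 4.88% over the genome) and 0 in the WT and 1 week lists (beside 0.397%). Over the genome these classes held 11391 and 927 regions. Another 11 were in both Taf4 KO lists without WT (15.3%, beside 17.9% over the genome), of which Nr5a2 and Prss2 held 6 and 4. Regions in a single list numbered 8 for WT (11.1%, beside 4.91% over the genome), 10 for 1 week (13.9%, beside 30%) and 27 for 5 weeks (37.5%, beside 26.2%). The WT regions that were missing from a single Taf4 KO list were thus all missing at 1 week, as were most such regions over the genome.

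The motifs of acinar factors were present in the span from 250 bp before to 50 bp after the start of most of the 10 genes, whether or not it was called. CACCTG was found in 5 (Cela1, Prss2, Cel, Rbpjl and Bhlha15), beside 19.8% of 22359 promoters, and TTTCCCA in 4, all enzymes (Cpa1, Ctrb1, Prss2 and Cel), beside 7.66%. CAGCTG was found in 3 (Cpa1, Cela1 and Ctrb1), beside 15.1%, and CAAGGTCA in 1 (Cel), beside 1.28%. CACCTG and TTTCCCA occurred together in 2 (Prss2 and Cel), beside 1.63%. The 4 enzyme promoters with a TC-box match were called in no list, and the Rbpjl and Bhlha15 promoters, called in WT, held CACCTG without a TC-box match. A match is a description of the sequence and not a bound site.

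The other acinar genes on the list, 31 of 32 found in the annotation, had few promoter peaks as well, and only those of Cckar and Gata4 at 5 weeks reached a -log10 q of 5. Of enzymes, Amy1 (an amylase) was called at 1 week with fold 2.49 and -log10 q 2.27, Try5 (a trypsinogen) at 5 weeks with 2.01 and 1.61, and Pnliprp2 (a lipase-related enzyme) in WT with 2.53 and 1.42. Of other secretory genes, Gp2, a zymogen granule membrane protein, was called at 5 weeks with 1.98 and 1.59, and Reg1, a secreted lectin-like protein, at 5 weeks with 2.01 and 1.72. Cckar, the cholecystokinin receptor, was called at 1 week with 2.32 and 2.45 and at 5 weeks with 2.73 and 5.31, the 73.2 percentile. Gata4, a transcription factor that acts in several tissues, was called in WT with 3.05 and 3.33 and at 5 weeks with 2.81 and 5.14, the 72.5 percentile. Against WT, 3 of the 31 gained and 2 lost a promoter peak at 1 week (5.46% and 8.54% of all genes did). At 5 weeks 4 gained and 1 lost one (7.74% and 1.11% of all genes).

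The windows of these 31 genes held 41, 90 and 99 peaks in the WT, 1 week and 5 week lists, or 2.51, 5.52 and 6.07 per 100 kb. Their density in WT was below that of the 10 main genes and of all genes. They lay in all 5 GC groups, with Amy1, Try5 and Reg1 among those in group 1. In that order of lists, all autosomal genes of group 1 held 1.40, 6.92 and 5.63 peaks per 100 kb, and those of group 5 held 7.46, 3.95 and 8.51. The part of GC content in these counts was not tested. The reads that map to several places were dropped by the authors, so stretches that occur more than once in the genome can lack peaks for that reason. In 3 of the 31 promoters under 50% of the 31-base words were unique in the genome, Amy2a5 (0%), Prss1 (32.7%) and Try5 (42.0%). Of these, Try5 was called at 5 weeks all the same. Over the promoters of the 10 main genes the share ran from 85.2% (Cela1) to 100% and over their windows from 89.0% (Ctrb1) to 97.6% (Cpa1). The part of read placement in the lack of calls at the 6 enzyme promoters was not tested.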

How the data were processed

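ATAC-seq peak lists of 3 libraries were used, 1 per group, with groups taken from the genotype and time labels. The authors mapped reads with Bowtie 1.0.0 to mm9, with reads of more than 1 place dropped, and ran MACS2 2.1.1 in broad mode on each library separately, after bcl2fastq 2.17.1.14, per the submitters' processing notes. A control, duplicate removal and a shift to the insertion site are not given in the sources used here. The deposited lists hold per peak a ratio (fold over local background) and the caller's p and q as -log10, all averaged over the peak, and a whole-number score made from the -log10 q by the authors' caller, which was not used. The values were ranked within their own list only.

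Genes came from GENCODE annotation of NCBIM37, the same build as mm9. In each list 2 mitochondrial peaks were dropped. A peak was counted from 1 bp of overlap. A peak in the windows of several genes counts in each, also over all genes. Percentiles of density are among all protein-coding genes. Totals of reads are not in peak lists: the background count was solved from fold and p of each peak as a Poisson tail, and its first percentile taken as a floor. This was tested on simulated data with known answers. Equal read extension in all libraries was assumed. Intervals are Wilson 95% intervals and cover counting only.

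All 10 genes were described, with the strongest peak of each list, every own-promoter peak and every region called in all lists. Other acinar genes were named where their promoter was called, except 1 that is not reported here, and neighbours where a described peak lay in them. The members and lists were chosen with earlier results of these data known. Of the other acinar genes, Amy2b was not matched. The alternatives tried were the gene body alone, a -log10 q of at least 3 or 5, lists of equal number, lists scaled to the WT background, a larger overlap, a wider promoter, and peaks outside the promoters of other genes. Python 3.11.15, pandas 2.3.3, numpy 2.4.6, scipy 1.17.1, pysam 0.24.0 and matplotlib 3.10.9 were used.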

Additional observations from a re-analysis of the deposited data

How the results depend on the processing

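The counts of peaks in the acinar windows, 23 in WT, 31 after 1 week and 54 after 5 weeks, differed from WT by 8 at 1 week and 31 at 5 weeks. With the gene body alone they were 7, 11 and 22, with differences of 4 and 15. With peaks under a -log10 q of 3 dropped they were 12, 5 and 16 (differences of -7 and 4), and with those under 5 dropped they were 8, 4 and 11 (differences of -4 and 3). With lists of equal number, 9 peaks at 1 week and 15 at 5 weeks gave differences of -14 and -8, and with lists scaled to the WT background 10 and 12 gave -13 and -11. The rise over WT at 5 weeks thus turned to a fall under the last 2, and the rise at 1 week under all 4. Over the windows of all genes the ratio to WT was 1.27 at 1 week and 1.61 at 5 weeks, and under these 4 settings it was 0.937 and 1.5, 0.790 and 1.57, 0.730 and 0.947, and 0.744 and 0.851. Settings chosen after seeing the data were the counts without Nr5a2 (18 at 1 week and 31 at 5 weeks, differences of -1 and 12), without Prss2 (a difference of 0 at 1 week) and without both (10 and 24, differences of -9 and 5). A larger overlap and leaving out peaks at other promoters kept both directions.

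The number of acinar genes with a promoter peak at 1 week went from 1 to 0 when peaks under a -log10 q of 3 or 5 were dropped, with lists of equal number and with lists scaled to the WT background, and to 3 with promoters of 2500 bp on each side. In WT it went from 2 to 1 when those under 5 were dropped. At 5 weeks it went from 3 to 2 under each of the 4 stricter lists, each time with the Ptf1a call lost, and to 4 with the wider promoters. The calls that the wider span added were those of Nr5a2 in every list and of Prss2 at 1 week.

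No paired analysis was possible because each group has 1 library and the labels give no replicate numbers. Peak lists do not hold reads, so a promoter without a peak was not called at this depth, which differed between libraries, and is not shown to be closed. Whether the libraries differ in the share of acinar cells was not tested.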
